A study of Mus musculus with 16 samples.

Results

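The mitochondrial respiratory chain consists of complexes I to IV, which pass electrons from NADH and succinate to oxygen and pump protons, and of complex V, the ATP synthase that uses the proton gradient. Most of its subunits are encoded in the nucleus, and skeletal muscle, which relies on the chain for sustained work, holds many mitochondria. FoxO1, FoxO3 and FoxO4 are transcription factors that insulin restrains and that are active in muscle during fasting.

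The members described here are the nuclear-encoded subunits of the chain, chosen by gene symbol alone (Ndufa, Ndufb, Ndufc, Ndufs or Ndufv with a number, Sdha to Sdhd, Uqcr, Cox4 to Cox8 and Atp5, without the Ndufaf assembly factors). They were 84 of 21368 genes with a symbol on the array and were read by 113 of 55681 probes. Complex I had 37 members, complex II 4, complex III 8, complex IV 18 and complex V 17. Ndufa4 and Ndufa4l2 are counted with complex I by their names, although their products are linked to complex IV. A total of 82 members passed the filter on dim probes and were tested. The remaining pair were Cox7b2, which was well above background on 0 of 16 arrays, and Cox8c, which was so on 1 of 16. Both are isoforms known from testis.

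Quadriceps mRNA was measured on 16 single-colour Agilent arrays, 1 per male mouse aged 8 weeks. Wild-type (WT) mice were either fed freely or fasted for 24 h, and so were mFoxO-TKO mice, which lack FoxO1, FoxO3 and FoxO4 in skeletal muscle through a Cre recombinase under the human α-actin (HSA) promoter. Each of the 4 groups had 4 mice. The design addresses what fasting does to muscle mRNA and how much of it needs FoxO. Since Cre acts in muscle fibres, the other cells of the muscle keep their FoxO genes. In these whole-tissue samples, fewer cells of a type and less RNA per cell cannot be told apart.

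Of the spots on an array, 45.0% to 75.2% were well above background, and 0 were saturated. The markers of skeletal muscle fibres fitted the labelled tissue, with 7 of 8 well above background on every array. Of the deleted genes, Foxo1 differed by -1.76 (log2, fed) and -3.39 (fasted) between mFoxO-TKO and WT mice, and Foxo4 was well above background on 0 of the 8 mFoxO-TKO arrays. The dim Foxo3 probe went the other way in fed mice (0.73, 95% interval 0.17 to 1.29; limma, adjusted p = 0.29) and gave -0.75 in fasted mice (adjusted p = 0.096). Whether the FoxO probes fall inside the removed exons was not analysed here. One array, fasted mFoxO-TKO replicate 1, had a patch of 430 spots with lost signal, which held 4 spots of members. Spots marked as outliers were also densest among members on the replicate 1 arrays, where 2, 7, 7 and 12 of the 82 members had no value (in the order fed and fasted WT, then fed and fasted mFoxO-TKO). The replicate 1 and 2 arrays shared slide 1 and the others slide 2, and each group kept its column on both slides, so position in the row and group cannot be told apart.

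Short motifs of FOXO and of factors known to act at respiratory genes (ERR, NRF1, ETS and YY1) were looked up in the members' promoter windows. RefSeq promoter windows of build GRCm38.p6 (250 bases before to 50 after a start) were found for 68 of 84 members, 73 windows in all. Both strands were searched, and matches of different motifs did not overlap. The FOXO core GTAAACA lay in 1 of 73 member windows (1.37%), against 3.65% of all 32851 windows. The ETS core CCGGAAG lay in 17 (23.3%, against 8.86%), the NRF1 motif GCGCATGC in 10 (13.7%, against 2.71%), the YY1 motif AAGATGGCG in 7 (9.59%, against 1.4%) and the ERR motif TCAAGGTCA in 2 (2.74%, against 0.423%). Of the 10 windows with the NRF1 motif, 5 matched on both strands at overlapping positions, since its letters nearly read the same on both. These matches are letters in a window and say nothing of binding. The 6 stretches that follow show at least 1 member of each complex, 5′ to 3′ on the gene's strand and upstream of the start. Capitals mark the motif: NRF1 in Ndufa11, ETS in Sdhd, Uqcr11 and Atp5j, FOXO in Cox7a2, which was the only member with it, ERR in Atp5g3, and YY1 in Atp5j before its ETS core.
Ndufa11 (chr17:56717662-56717761, plus strand): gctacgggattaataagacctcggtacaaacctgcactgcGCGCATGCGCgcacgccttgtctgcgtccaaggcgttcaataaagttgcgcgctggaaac
Sdhd (chr9:50603850-50603949, minus strand): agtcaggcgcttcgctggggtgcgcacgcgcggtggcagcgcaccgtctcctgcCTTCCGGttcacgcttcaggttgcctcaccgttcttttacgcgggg
Uqcr11 (chr10:80406822-80406921, minus strand): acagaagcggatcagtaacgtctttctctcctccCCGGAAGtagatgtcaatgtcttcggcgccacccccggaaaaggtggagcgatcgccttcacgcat
Cox7a2 (chr9:79760004-79760103, minus strand): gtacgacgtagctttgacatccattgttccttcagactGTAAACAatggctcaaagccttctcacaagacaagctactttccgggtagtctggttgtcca
Atp5g3 (chr2:73911327-73911426, minus strand): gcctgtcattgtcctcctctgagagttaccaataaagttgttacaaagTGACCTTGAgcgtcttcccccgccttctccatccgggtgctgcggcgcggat
Atp5j (chr16:84834977-84835076, minus strand): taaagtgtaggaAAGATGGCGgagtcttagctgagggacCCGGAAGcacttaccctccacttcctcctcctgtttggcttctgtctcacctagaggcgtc

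No subunit of the respiratory chain passed the test in any comparison. In limma's fit over all 21288 genes (Benjamini-Hochberg adjusted p under 0.05), 0 of 82 members passed with fasting in WT mice, where 21.2% of all genes did (11.8% higher and 9.45% lower). The same count of 0 of 82 held with fasting in mFoxO-TKO mice (background 8.73%; 4.69% higher, 4.04% lower), for mFoxO-TKO against WT in fed mice (1.01%; 0.498% higher, 0.512% lower) and in fasted mice (9.6%; 4.74% higher, 4.86% lower). It also held for the interaction, the difference between the genotypes in their response to fasting (1.13%; 0.465% higher, 0.662% lower). At an unadjusted p under 0.05, limma counted 0 members for fasting in WT mice, 0 for genotype in fasted mice and 0 for the interaction. It counted 1 for fasting in mFoxO-TKO mice (Uqcrfs1, higher) and 1 for genotype in fed mice (Sdhb, lower). With the replicate number as a block, which pairs arrays by slide and row, the calls over all genes were 6409 for fasting in WT mice (4517 without the block). They were 3361 for fasting in mFoxO-TKO mice (1858) and 3391 for genotype in fasted mice (2043). For genotype in fed mice they were 176 higher and 226 lower (106 and 109), and for the interaction 253 higher and 405 lower (99 and 141). With the block, 1 member passed as higher for fasting in mFoxO-TKO mice (0 without the block). Scaling moved the balance of the calls over all 21288 genes with fasting in WT mice. It went from 2505 higher and 2012 lower to 2209 and 4011 (the 75th percentile taken over probes detected on every array). The authors' value table gave 1947 and 2860, on a smaller set of 12952 genes tested, so its counts are not on the same genes. The first of these scalings also gave 2106 higher and 1232 lower genes for genotype in fasted mice (1008 and 1035 otherwise) and 291 and 247 for the interaction (99 and 141). The lowest adjusted p of a member was 0.20 for fasting in WT mice and 0.19 for fasting in mFoxO-TKO mice.

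Most members have bright probes, and the share of genes that passed is lower among bright genes. Among the 3096 genes with a mean signal 4 log2 units or more over the array's 75th percentile, 13.7% passed with fasting in WT, 5.52% with fasting in mFoxO-TKO, 0.388% for genotype in fed mice, 6.43% for genotype in fasted mice and 0.711% for the interaction.

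The size of the members' changes was small beside that of other genes. All values from here on are log2 signals relative to the array's 75th percentile, or differences between them. With fasting in WT mice, the median change of the 82 members was 0.03 and the median of all genes 0.03. Their interquartile range was 0.15 log2 units, against 0.59 for all genes and 0.34 for the bright ones. The corresponding medians were 0.09 for members and 0.07 for all genes with fasting in mFoxO-TKO mice, -0.04 and 0.01 for genotype in fed mice, 0.03 and 0.04 for genotype in fasted mice, and 0.07 and 0.03 for the interaction. Replicate spread does not set the members apart from other bright genes: the pooled SD within groups had a median of 0.25 for members, 0.25 for bright genes and 0.29 for all genes.

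The intervals say how much change these arrays leave room for. With fasting in WT mice, the 95% interval lay within 0.5 log2 units of 0 (1.41-fold) for 48 of 82 members (58.5%), against 17.3% of all genes and 31.2% of bright genes. It lay within 1 log2 unit (2-fold) for 76 (92.7%), against 66.6% of all genes and 84% of bright genes. For fasting in mFoxO-TKO mice, 37 members (45.1%) lay within 0.5 and 76 (92.7%) within 1 log2 unit, against 35.4% and 87.7% of bright genes. For genotype in fed mice the counts were 46 (56.1%) and 77 (93.9%), against 48.5% and 93.8% of bright genes. In fasted mice they were 39 (47.6%) and 76 (92.7%), against 38.4% and 87.1% of bright genes. The interaction was measured less precisely, with 10 members (12.2%) within 0.5 and 67 (81.7%) within 1 log2 unit, against 9.92% and 77.7% of bright genes. For members whose interval reached beyond 0.5 log2 units, a change of more than 1.41-fold therefore lay within the interval at this number of arrays.

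**Figure D1:**
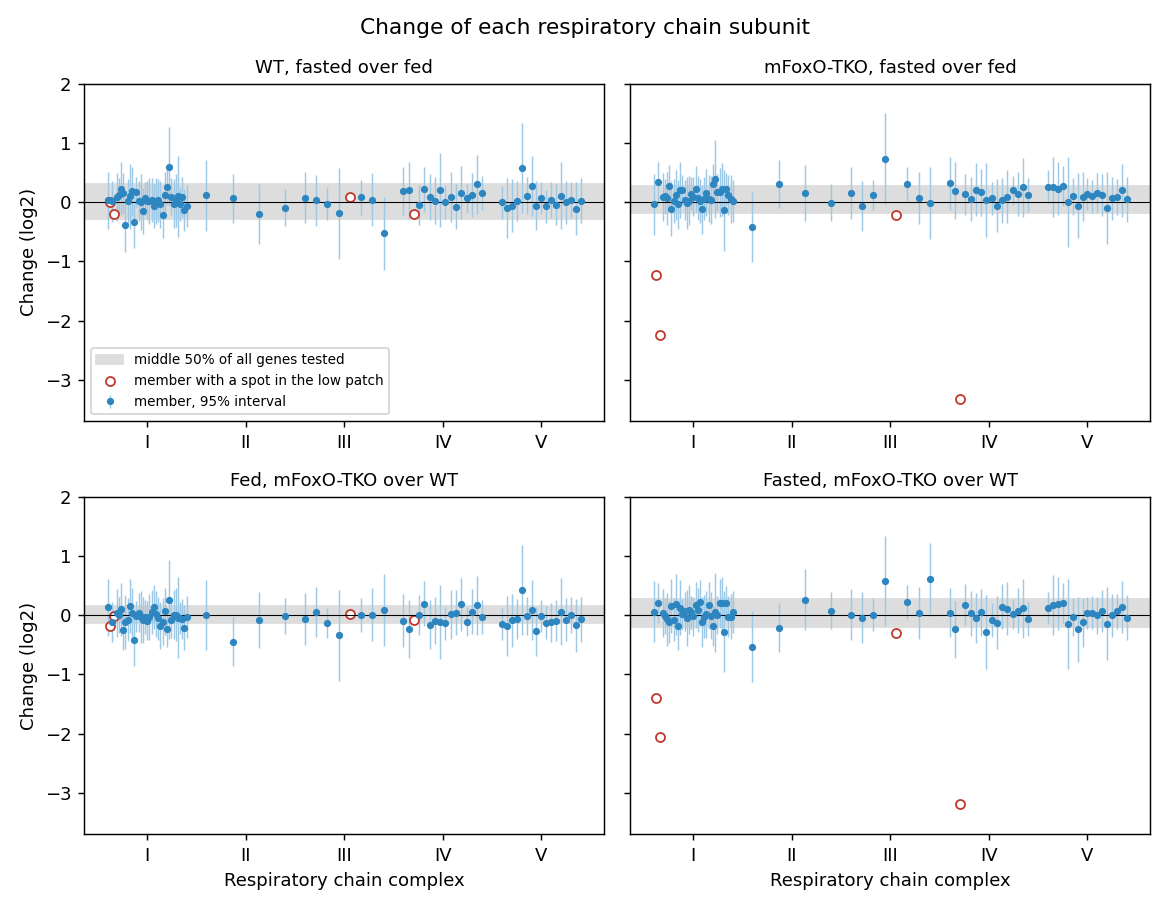
Change of each of the 82 members (log2, vertical axis) by complex (horizontal axis) in the 4 comparisons of groups; bars are 95% intervals from limma and the grey band holds the middle 50% of all genes tested. Filled points lie close to 0 in each panel, and the open points, members with a spot in the low patch of fasted mFoxO-TKO replicate 1 and drawn without their wide intervals, reach -3.33 where that array enters.

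Taken by array, the members' median differed more between arrays of a group than between groups. For each member the signal was set against its mean in fed WT mice, and the median over members was taken. It was 0.14, -0.08, -0.03 and -0.03 on the 4 fed WT arrays and 0.23, 0.16, -0.14 and -0.08 on the fasted WT arrays. It was 0.30, -0.13, -0.05 and -0.23 on the fed mFoxO-TKO arrays and 0.40, 0.10, 0.03 and -0.16 on the fasted mFoxO-TKO arrays. The replicate 1 array was the highest in every group, and all 4 groups overlapped. The same held for the median of each of the 5 complexes. The SD between replicates averaged 0.19 over the groups, more than any difference between the group means of 0.00, 0.04, -0.03 and 0.09 (same order). Within slide 1 the members' median change with fasting in WT mice was 0.17, and within slide 2 it was -0.09, where the medians of all genes were 0.11 and -0.04. In mFoxO-TKO mice the members' medians were 0.18 and 0.05, and those of all genes 0.13 and 0.01. The sign of the small median shift in WT mice thus differed between slides. By replicate number, the fasted array exceeded the fed one by 0.11, 0.23, 0.08 and 0.07 in mFoxO-TKO mice, positive in all 4 pairs, and by 0.09, 0.24, -0.11 and -0.05 in WT mice. These differences are a description, given without a test. The part of slide and position in this pattern was not tested.

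**Figure D2:**
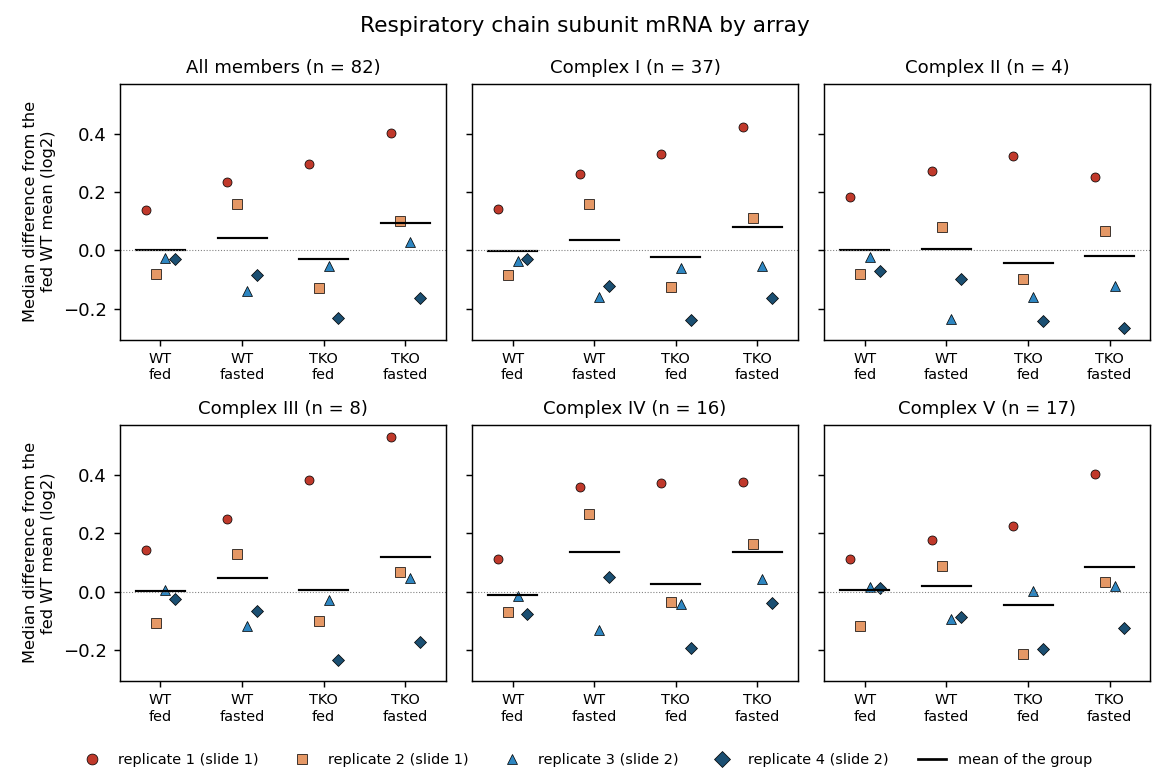
Median over members of the difference from the fed WT mean (log2, vertical axis) for each of the 16 arrays, by group (horizontal axis), for all members and for each complex; lines are group means, and symbols mark the replicate number and slide. The replicate 1 arrays lie highest in every group, from 0.14 to 0.40 over all members, and the groups overlap.

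Complex I takes electrons from NADH. Its 37 members had a median change of 0.02 with fasting in WT mice (range -0.38 to 0.60) and of 0.07 with fasting in mFoxO-TKO mice, and 0 of 37 passed in any comparison (limma; 0 at an unadjusted p under 0.05).

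Ndufc2, an accessory subunit of the membrane arm, chosen after its values were seen, gave 6.99, 6.72, 6.60 and 6.59 in fed WT and 6.67, 6.81, 6.20 and 6.36 in fasted WT mice. The fasted values were lower on average and overlapped the fed ones. The change was -0.22 ± 0.19 (SE, as after ± from here on; limma, adjusted p = 0.48), and it passed as lower under 3 other scalings that move all genes down, with values of -0.36 to -0.39. Ndufb11, a further accessory subunit, was the complex I member nearest to 0 with fasting in WT mice (0.00, 95% interval -0.48 to 0.47).

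Ndufs3, a core subunit named after its values were seen, had the largest positive change of all members with fasting in WT mice, 0.60 ± 0.31 (limma, adjusted p = 0.20). Its fed WT signals were 7.38, 7.20, 5.60 and 7.31 and its fasted WT signals 7.77, 7.44, 7.40 and 7.29. A single low array, fed WT replicate 3, stood apart, and the other fed and fasted values overlapped.

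Groups without overlap were rare among the members. Ndufa9, an accessory subunit of complex I named after its values were seen, was the only 1 of 82 members (1.22%) whose fasted and fed mFoxO-TKO values did not overlap, against 14.3% of all genes. It gave 5.76, 5.48, 5.74 and 5.76 fed and 5.94, 5.78, 5.90 and 5.92 fasted in mFoxO-TKO mice, a change of 0.20 ± 0.12 (limma, adjusted p = 0.35). With fasting in WT mice, 0 of 82 members were without overlap, against 28.9% of all genes. For genotype, the count was 1 of 82 (1.22%, against 9.13%) in fed mice and 0 of 82 (against 13.1%) in fasted mice.

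Ndufa4 gave 7.10, 6.92, 7.04 and 6.85 in fed WT mice, 7.45, 7.19, 6.93 and 6.94 in fasted WT mice, 6.62, 6.82, 6.93 and 6.57 in fed mFoxO-TKO mice and 7.41, 7.09, 6.78 and 6.76 in fasted mFoxO-TKO mice. Its groups overlapped, with changes of 0.15 with fasting in WT and 0.27 in mFoxO-TKO mice. Ndufa4l2, its hypoxia-linked relative, gave 1.47, 1.85, 1.85 and 1.66 in fed and 1.47, 1.32, 1.04 and 1.46 in fasted WT mice. The fasted values lay mostly below the fed ones, with a change of -0.38 (95% interval -0.84 to 0.08; limma, adjusted p = 0.24).

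Ndufv3, a small accessory subunit of the NADH-oxidising module, was read by 2 probes that did not behave alike. On the brighter probe (A_55_P2184180), which stands for the gene, the change with fasting in WT mice was -0.06 ± 0.17 and that for genotype in fasted mice 0.06 ± 0.17. The dimmer probe (A_51_P140211) gave -0.36, -0.54, -0.40 and -0.13 in fed WT and -1.60, -0.96, -1.20 and -0.36 in fasted WT mice. In mFoxO-TKO mice it gave -0.17, -0.42, -0.24 and -0.10 fed and -0.44, -0.14, -0.21 and 0.05 fasted. Fasted WT arrays thus held the 3 lowest values, with the fourth among the values of the other groups.

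When each of the 28581 kept probes was fitted on its own, this probe was the only 1 of 111 member probes to pass. It fell by 0.67 with fasting in WT mice (SE 0.21; limma, adjusted p = 0.031; 21.2% of probes passed) and was higher by 0.85 in fasted mFoxO-TKO than in fasted WT mice (SE 0.21; adjusted p = 0.016; 9.76% of probes passed). The interaction was 0.72 ± 0.29 (limma, adjusted p = 0.35) and did not pass. The first call was lost in 7 of 24 other settings: without fed WT replicate 1, 3 or 4, without fasted WT replicate 1 or 3, and within each slide. The second was lost in 3 of 24: without fasted mFoxO-TKO replicate 4 and within each slide. The changes within slides 1 and 2 were -0.83 and -0.51 on the Ndufv3 dimmer probe for fasting in WT mice, and 0.99 and 0.70 for genotype in fasted mice. The fits over single probes and the choice of Ndufv3 were made after the values were seen. Which exon each probe reads was not analysed here.

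**Figure D3:**
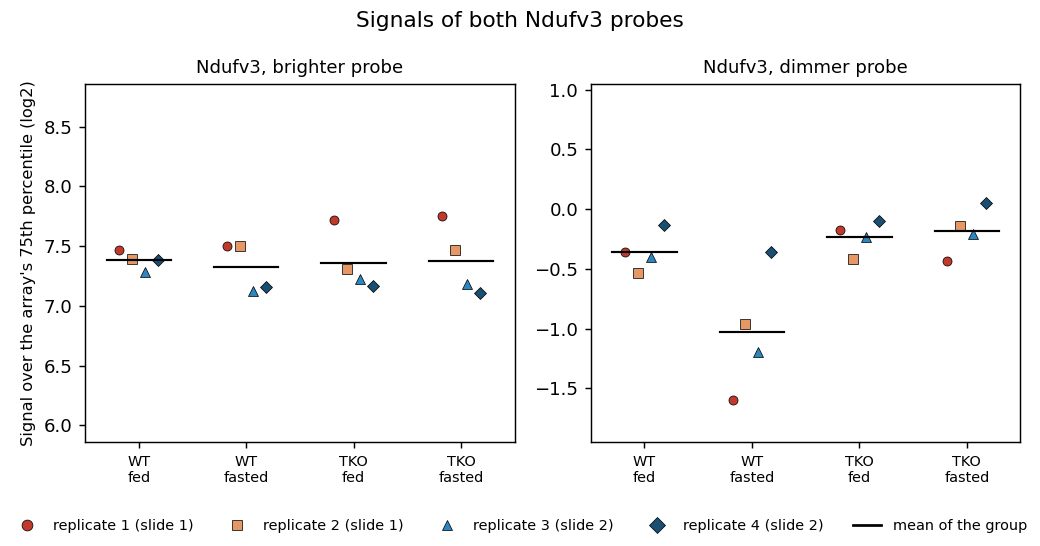
Signals of both Ndufv3 probes (log2 over the array's 75th percentile, vertical axes of equal length) on the 16 arrays by group (horizontal axis); lines are group means. The brighter probe stays level, and the dimmer probe is low on 3 of the 4 fasted WT arrays.

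Complex II, succinate dehydrogenase, is also an enzyme of the citrate cycle and has its subunits all from the nucleus. Of its 4 members 0 passed in any comparison (limma; Sdhb alone at an unadjusted p under 0.05). Sdhb, the iron-sulfur subunit, gave 7.04, 7.43 and 7.34 on the 3 fed WT arrays with a value, 7.66, 7.17, 7.30 and 7.20 in fasted WT mice, 6.50, 6.81, 6.90 and 7.07 in fed mFoxO-TKO mice, and 6.92, 7.45 and 7.0 on 3 fasted mFoxO-TKO arrays. Of the fed mFoxO-TKO values, 3 lay below every fed WT value. The difference of -0.45 ± 0.19 had a 95% interval of -0.86 to -0.04 and an adjusted p of 0.43 in limma's fit.

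Sdha, the flavoprotein that oxidises succinate, gave 6.53, 6.29, 6.36 and 6.21 in fed WT, 6.76, 6.61, 6.18 and 6.32 in fasted WT, 6.83, 6.24, 6.26 and 6.06 in fed mFoxO-TKO and 4.88, 6.48, 6.28 and 6.08 in fasted mFoxO-TKO mice. The low value came from replicate 1, the array with the low patch, although this spot lay outside the patch as defined here. Sdhd, a membrane anchor, gave 6.85, 6.59, 6.63 and 6.69 in fed WT and 6.66, 6.77, 6.38 and 6.56 in fasted WT mice, which overlapped (-0.10 ± 0.14; limma, adjusted p = 0.72). Under the 3 other scalings it passed as lower, at -0.24 to -0.28. Sdhc, the other anchor, changed by -0.20 with fasting in WT mice (95% interval -0.71 to 0.31) and did not pass.

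Complex III passes electrons from ubiquinol to cytochrome c. Its 8 members had a median change of 0.04 with fasting in WT and 0.09 in mFoxO-TKO mice, and 0 of 8 passed in any comparison (limma; Uqcrfs1 alone at an unadjusted p under 0.05). Uqcrfs1, the Rieske iron-sulfur protein, gave 6.50, 6.59, 6.61 and 6.63 in fed WT, 6.61, 6.76, 6.56 and 6.70 in fasted WT, 6.78, 6.53, 6.54 and 6.46 in fed mFoxO-TKO and 7.30, 6.76, 6.77 and 6.71 in fasted mFoxO-TKO mice. The fasted mFoxO-TKO values were the highest of the 4 groups on average, and 1 fed mFoxO-TKO array lay among them. The change with fasting in mFoxO-TKO mice was 0.31 ± 0.14 (95% interval 0.02 to 0.60; limma, adjusted p = 0.19).

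Uqcrc1, a core protein, had the largest median change of complex III over the 4 comparisons of groups. It gave 6.52, 6.20, 6.69 and 6.20 in fed WT, 6.51, 6.40, 5.82 and 6.13 in fasted WT, 6.56, 6.36, 5.28 and 6.05 in fed mFoxO-TKO and 8.09, 6.40, 6.44 and 6.24 in fasted mFoxO-TKO mice. Its changes were 0.73 ± 0.36 with fasting in mFoxO-TKO mice and 0.58 ± 0.36 for genotype in fasted mice. A single high array, fasted mFoxO-TKO replicate 1, entered both. The single lowest array, fed mFoxO-TKO replicate 3, entered the first alone. Uqcrq, a small subunit named after its values were seen, had the largest negative change of all members with fasting in WT mice, -0.53 ± 0.29 (limma, adjusted p = 0.22). Its fasted WT values were 5.80, 7.22, 6.18 and 7.32, and its fed WT values 7.35, 7.06, 6.84 and 7.39. These are values of the brighter of its 2 probes. The changes on the 2 Uqcrq probes differed by 0.55 in this comparison, about as much as the change itself. Uqcrb, a quinone-binding subunit, lay nearest to 0 (-0.03, 95% interval -0.30 to 0.25).

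Complex IV, cytochrome c oxidase, has several subunits in paired isoforms, one found in most tissues and one typical of heart and skeletal muscle. Its 16 tested members had a median change of 0.10 with fasting in WT mice, the largest of the 5 complexes, and of 0.13 in mFoxO-TKO mice. Of these, 13 had a positive change in WT and 14 in mFoxO-TKO mice, and 0 of 16 passed in any comparison (limma; 0 at an unadjusted p under 0.05). Members share arrays, so their common sign is not a count of independent results, and the median over all 82 members with fasting in WT mice was -0.13 with the percentile taken over detected probes and -0.11 after quantile normalisation.

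Cox8b, a muscle isoform, gave 7.95, 7.84, 7.92 and 7.94 in fed WT, 8.27, 8.17, 7.92 and 7.89 in fasted WT, 8.17, 7.81, 7.86 and 7.66 in fed mFoxO-TKO and 8.14, 8.06, 7.96 and 7.84 in fasted mFoxO-TKO mice. Its groups overlapped, with changes of 0.15 ± 0.13 and 0.12 ± 0.13 with fasting. Cox8a, its widely expressed partner, gave 5.99, 5.88, 5.81 and 5.70 in fed WT, 6.39, 6.15, 5.82 and 6.21 in fasted WT, 6.48, 6.01, 5.86 and 5.68 in fed mFoxO-TKO and 7.04, 6.17, 5.89 and 5.93 in fasted mFoxO-TKO mice. The change of Cox8a was 0.30 ± 0.24 with fasting in WT mice on its brighter probe and 0.47 ± 0.17 on the dimmer one (limma, adjusted p = 0.43 and 0.063).

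Cox7a1, the muscle isoform of subunit 7a, gave 8.62, 8.30, 8.36 and 8.32 in fed WT and 8.78, 8.80, 8.16 and 8.22 in fasted WT mice, with a change of 0.09 ± 0.19. Cox7a2, its common partner and the member with the FOXO letters in its window, changed by -0.08 with fasting in WT (95% interval -0.46 to 0.31), 0.03 with fasting in mFoxO-TKO, 0.04 for genotype in fed and 0.15 for genotype in fasted mice. Neither isoform passed, and the related Cox7a2l, which takes part in supercomplex formation, changed by 0.16 with fasting in WT mice (95% interval -0.29 to 0.61). Its probes differed by 0.62 for genotype in fasted mice, and none of them passed.

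Cox6a2, the muscle isoform of subunit 6a, gave 8.82, 8.56, 8.61 and 8.51 in fed WT and 9.16, 8.87, 8.39 and 8.44 in fasted WT mice. It changed by 0.09 and its partner Cox6a1 by 0.21. Cox4i1, the common subunit 4, gave 8.21, 8.01, 8.13 and 8.02 in fed WT, 8.55, 8.41, 8.18 and 7.98 in fasted WT, 8.12, 8.07 and 7.80 on 3 fed mFoxO-TKO arrays and 8.90, 8.30, 8.14 and 7.92 in fasted mFoxO-TKO mice. Both had their highest fasted values on slide 1, and the groups overlapped. Cox4i2, the isoform known from lung, changed by 0.20 in both genotypes (95% interval -0.29 to 0.68 in each), and Cox6b1 and Cox6b2 by 0.02 and 0.21 in WT mice. Cox7b changed by 0.06 (95% interval -0.18 to 0.31), and Cox6c was the complex IV member nearest to 0 (0.00, 95% interval -0.28 to 0.28).

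The largest negative values of any member came from the low patch. Cox5a, a nuclear subunit of complex IV, read -5.39 on fasted mFoxO-TKO replicate 1, where the median of the 14 other arrays with a value was 8.21. Ndufa12 read -2.65 there (median of the other arrays with a value 7.18), Ndufa10 -0.11 (5.74), and 1 spot of Uqcrc2 -3.68 (7.24). On the other 3 fasted mFoxO-TKO arrays, Cox5a gave 8.45, 8.43 and 8.08. That single array gave the members' largest apparent changes with fasting in mFoxO-TKO mice, -3.33 for Cox5a, -2.24 for Ndufa12 and -1.22 for Ndufa10, none of which passed. Without the spots of the patch the values were 0.10, 0.27 and 0.26, and all 82 members lay between -0.42 and 0.73. Again 0 of 82 passed (limma; 1 at an unadjusted p under 0.05).

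**Figure D4:**
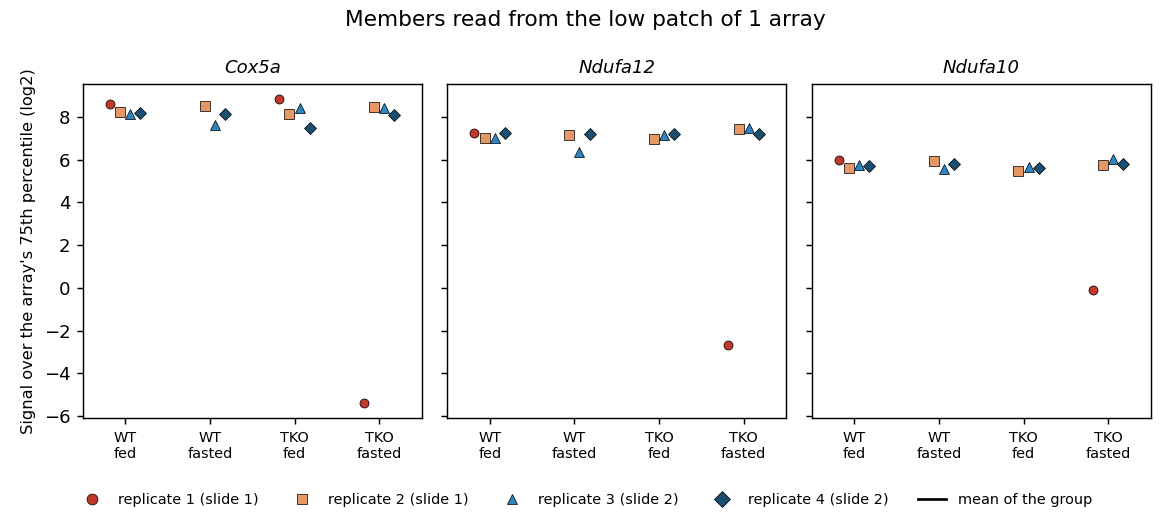
Signals of Cox5a, Ndufa12 and Ndufa10 (log2 over the array's 75th percentile, vertical axis) on the arrays with a value, by group (horizontal axis). Each gene has a single low point, -5.39, -2.65 and -0.11, on fasted mFoxO-TKO replicate 1.

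Complex V makes ATP. Its 17 members had median changes of 0.01 with fasting in WT and 0.10 in mFoxO-TKO mice, and 0 of 17 passed in any comparison (limma; 0 at an unadjusted p under 0.05). The c subunit that forms the rotor ring is encoded by 3 genes with the same mature protein. Atp5g1 gave 7.98, 7.72, 8.03 and 7.95 in fed WT, 8.16, 8.06, 8.09 and 7.83 in fasted WT, 8.15, 7.71, 8.03 and 7.72 in fed mFoxO-TKO and 8.32, 7.96, 7.99 and 7.74 in fasted mFoxO-TKO mice, with overlap throughout. Atp5g3 gave 7.94, 7.71, 7.68 and 7.62 in fed WT and 7.58, 7.41, 7.52 and 7.33 in fed mFoxO-TKO mice, the only member whose fed groups did not overlap. Its difference was -0.27 ± 0.19 (limma, adjusted p = 0.82). Atp5g2 changed by 0.27 with fasting in WT mice (95% interval -0.24 to 0.77).

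Atp5e, the epsilon subunit of the catalytic head, had the largest median change of complex V. It gave 8.25, 7.94, 6.26 and 8.00 in fed WT and 8.50, 8.32, 8.04 and 7.92 in fasted WT mice, a change of 0.58 ± 0.36 (limma, adjusted p = 0.29) that rested on the low fed WT replicate 3. Atp5md, a small membrane subunit, was nearest to 0 with fasting in WT mice (-0.01, 95% interval -0.37 to 0.36). Atpif1, the inhibitor of complex V, which is no subunit and no member, changed by -0.04 with fasting in WT and -0.33 in mFoxO-TKO mice and did not pass.

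Some genes that build, feed or regulate the chain did pass, among them the uncoupling protein Ucp3, the copper chaperone Sco2 and the ribosomal protein Mrpl41. Of 226 tested genes in 11 lists of other mitochondrial genes, 13 rose and 6 fell with fasting in WT mice, 4 rose and 1 fell in mFoxO-TKO mice, 0 passed for genotype in fed mice (5 at an unadjusted p under 0.05), 4 were higher and 1 lower for genotype in fasted mice, and 1 passed for the interaction (limma, adjusted over all genes). That is 8.41% with fasting in WT mice, 2.21% in mFoxO-TKO mice, 2.21% for genotype in fasted mice and 0.442% for the interaction, where the shares over all genes were 21.2%, 8.73%, 9.6% and 1.13%. Of the lists, complex I assembly (15 genes), complex II and III assembly (9), complex V assembly (4), the citrate cycle (14) and the small mitochondrial ribosomal subunit (30) had 0 passing in any comparison. At an unadjusted p under 0.05, limma counted at most 0, 3, 0, 1 and 2 genes of these lists in any 1 comparison. Nearly every call named in the next paragraphs was lost within slide 1 alone, which holds 2 arrays a group. The calls on Ucp3 were not. Losses in other settings are given for some calls, and the list of them is not full.

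Among 18 complex IV assembly genes, Sco2, a copper chaperone of the oxidase, gave 2.20, 2.05, 2.25 and 1.94 in fed WT and 2.88, 3.2, 2.73 and 3.11 in fasted WT mice, without overlap. It rose by 0.87 ± 0.18 (limma, adjusted p = 0.003) and by 0.63 ± 0.18 in mFoxO-TKO mice (adjusted p = 0.037). In mFoxO-TKO mice the Sco2 call was lost on omitting any 1 of 5 arrays and with only the 2 groups compared in the fit. Sco1, its relative, fell by 0.63 in WT mice (not passing with normexp background correction), and Cox11, a further copper chaperone, by 0.58, the second call being lost without fed WT replicate 1. Coa6 fell by 0.57, a call lost on omitting any 1 of 6 arrays. For genotype in fasted mice, Cox11 was higher by 0.55 ± 0.16 in mFoxO-TKO mice (adjusted p = 0.036 with limma). That call was lost on omitting any 1 of 7 arrays and with only the 2 groups compared in the fit.

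Among 21 genes of electron carriers and coenzyme Q, Etfdh, which passes electrons from fatty acid oxidation to ubiquinone, rose by 0.67 in WT and by 1.1 in mFoxO-TKO mice. The WT call was lost without fed WT replicate 3 or 4, under 2 other scalings and with normexp background correction. Coq3, a methyltransferase of coenzyme Q synthesis, was dim. Its means were -3.44 in fed WT, -3.39 in fasted WT, -3.56 in fed mFoxO-TKO and -2.62 in fasted mFoxO-TKO mice. It rose by 0.94 in mFoxO-TKO mice and was higher by 0.77 in fasted mFoxO-TKO than in fasted WT mice. Both calls were lost with normexp correction and with only the 2 groups compared in the fit, and the second also on omitting any 1 of 4 arrays. Pdss2, which makes the side chain of coenzyme Q, fell by 0.58 in WT mice, a call lost on omitting any 1 of 2 arrays or with normexp correction. Among 13 genes of ADP, phosphate and creatine handling and uncoupling, Ucp3, an uncoupling protein of muscle, gave 1.36, 2.09, 2.24 and 1.39 in fed WT and 4.07, 4.09, 3.56 and 3.36 in fasted WT mice. It rose by 2.0 ± 0.23 in WT and by 2.24 ± 0.23 in mFoxO-TKO mice, without overlap in either. Slc25a5, an ADP/ATP carrier, rose by 0.61 in WT mice, a call lost on omitting any 1 of 6 arrays.

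Of 25 regulators of mitochondrial biogenesis, 6 rose with fasting in WT mice and 0 passed in mFoxO-TKO mice (limma; 10 at an unadjusted p under 0.05), and 0 passed for the interaction (2 higher and 3 lower at an unadjusted p under 0.05). Over all genes, 11.8% rose in WT and 4.69% in mFoxO-TKO mice, and that the regulators' counts differ between genotypes was not shown. The largest rises were those of the nuclear receptor Ppard (0.86 ± 0.21), of Mterf4, a factor of mitochondrial ribosome assembly (0.60 ± 0.16, not passing under detected-probe scaling or in the authors' value table), and of Nrf1, a transcription factor for respiratory genes (0.60 ± 0.15). Ppargc1a, the coactivator PGC-1alpha, changed by 0.33 ± 0.26 in WT (limma, adjusted p = 0.43) and by 0.58 ± 0.26 in mFoxO-TKO mice (adjusted p = 0.19). Perm1, a muscle regulator downstream of PGC-1alpha, was higher by 0.82 in fasted mFoxO-TKO than in fasted WT mice. The Perm1 call was lost on omitting any 1 of 4 arrays and with only the 2 groups compared in the fit.

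In the large mitochondrial ribosomal subunit (48 genes), Mrpl41 gave 4.85, 4.94, 4.69 and 4.74 in fed WT, 6.42, 5.79, 5.81 and 6.01 in fasted WT, 5.58, 5.03, 4.85 and 4.82 in fed mFoxO-TKO and 5.23, 5.21, 5.21 and 5.03 in fasted mFoxO-TKO mice. Fasted WT values lay above all others. It rose by 1.20 ± 0.17 in WT mice. In fasted mice it was lower in mFoxO-TKO than in WT mice, with a difference of -0.84 ± 0.17. The interaction of -1.1 ± 0.25 passed (limma, adjusted p = 0.043) and no longer did so when any 1 of 13 arrays was left out. Mrpl19 fell by 0.77 in WT mice and was higher by 0.42 in fasted mFoxO-TKO than in fasted WT mice. The second call was lost on omitting any 1 of 12 arrays and with only the 2 groups compared in the fit. Mrpl9 rose by 0.63 in WT mice, a call lost on omitting any 1 of 5 arrays. Among 29 protein import genes, Timm10, a chaperone between the membranes, rose by 1.17 in WT mice. Tomm40l, a pore protein of the outer membrane, fell by 0.89 in WT and by 0.58 in mFoxO-TKO mice. The mFoxO-TKO call was lost on omitting any 1 of 3 arrays, with normexp correction and with only the 2 groups compared in the fit.

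**Figure D5:**
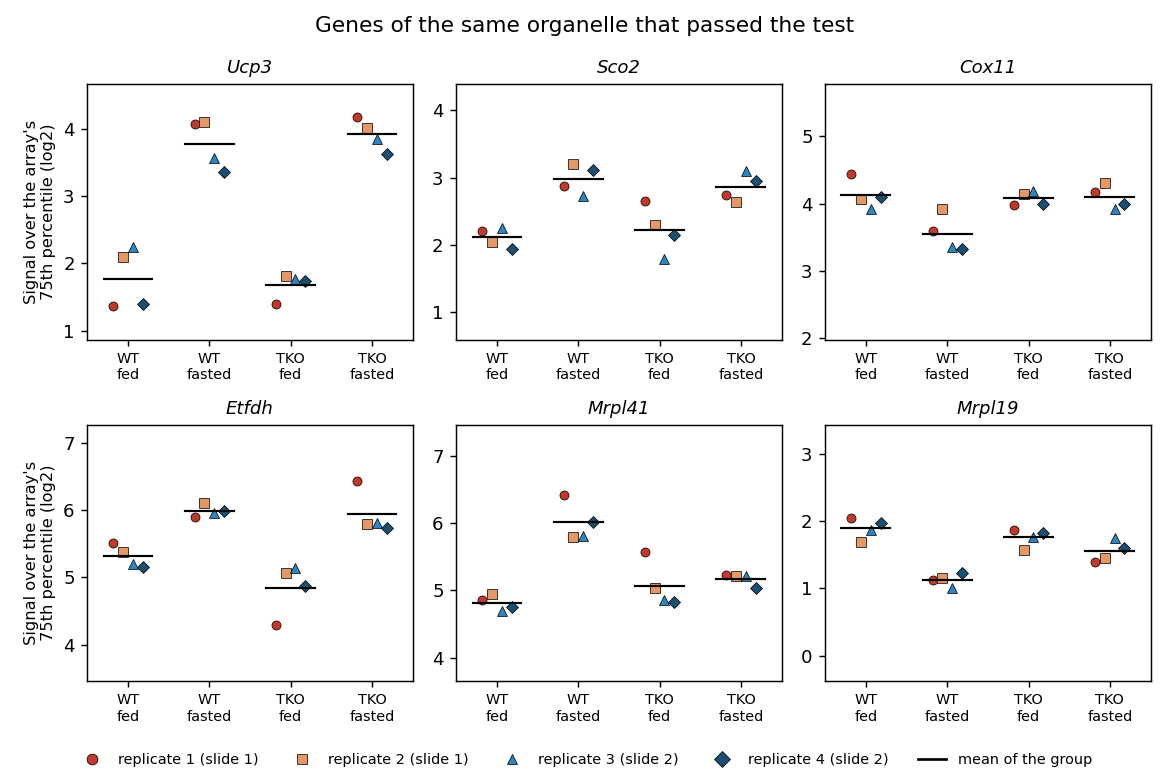
Signals of 6 genes of mitochondria that passed in at least 1 comparison (log2 over the array's 75th percentile, vertical axes of equal length) on the 16 arrays by group (horizontal axis); lines are group means. Ucp3 and Sco2 are higher in fasted mice of both genotypes, and Mrpl41 stands apart in fasted WT mice, at 5.79 to 6.42.

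Markers of other cells passed in some comparisons. Of 8 fibroblast markers, 5 fell with fasting in WT mice (limma, against 9.45% of all genes), and 2 fell in mFoxO-TKO mice (against 4.04%). Lum fell by 2.57 and Col3a1 fell by 1.96 in WT mice. Signals of the 6 markers with a value on every array were summed, in multiples of the array's 75th percentile. The sum ranged from 290.2 to 373 in fed WT and from 245 to 340.3 in fasted WT mice. In mFoxO-TKO mice it ranged from 265 to 307 fed and from 196 to 342 fasted. Col3a1, without a value on fed WT replicate 3 and fasted mFoxO-TKO replicate 1, is not in this sum, in which the brightest markers weigh most. Of the 8 markers, 6 were well above background on every array. Of 8 slow fibre markers, 0 passed in any comparison (limma). At an unadjusted p under 0.05, limma counted 2 higher for genotype in fasted mice, and 1 higher and 1 lower for fasting in mFoxO-TKO mice. The markers' median changes were 0.06 with fasting in WT and 0.32 in mFoxO-TKO mice, and 0.21 for genotype in fed and 0.37 in fasted mice. In each of these, 7 of 8 were positive. Their summed signal over 6 genes ranged from 467 to 581 in fed WT, 448 to 609 in fasted WT, 420.2 to 831 in fed mFoxO-TKO and 531 to 1030 in fasted mFoxO-TKO mice. In WT mice with fasting, 1 of 8 endothelial, 2 of 6 fat cell and 1 of 6 macrophage markers fell (limma, against 9.45% of all genes). In the same comparison, 1 fat cell, 1 macrophage and 1 of 5 Schwann cell markers rose (against 11.8%). With fasting in mFoxO-TKO mice, 1 fat cell and 1 macrophage marker fell (against 4.04%), and 1 of each rose (against 4.69%). For genotype in fasted mice, 1 macrophage marker was higher (against 4.74%). The part of other cell types and of fibre type in the members' values was not tested.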

How the data were processed

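Per the labels, Cy3-labelled RNA from the quadriceps of 16 mice was put on Agilent arrays, 1 per mouse. The deposited processed signals are intensities, background-subtracted and detrended within arrays per the file headers (Feature Extraction 11.0.1.1, whereas the submitters' processing notes name 9.5). The deposited median intensities of spots and background served 1 alternative. The authors' deposited value table gives whole-number scores of 18324 spots. Within 2% they are proportional to the processed signals of their array, so linear, uncentred and of the same direction, with column medians of 22 to 25.

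Control and outlier spots were left out (0.143% to 3.28% of an array), log2 of the signal was taken minus each array's 75th percentile, and spots of a probe were averaged. Names came from RefSeq accessions (28331 of 55681 probes). Probes stayed in the test if every array of at least 1 group had them well above background (28581 probes, 21288 genes, 14157 with a symbol), and the brightest kept probe stands for a gene (22 members had several). The headers name build mm9 and the sequence tables GRCm38.p6, so positions are given for promoter windows only. Short transcripts such as these have processed copies in the genome: 18 pseudogenes in the table carry a member family's name, and signal from such copies cannot be told apart from the gene's own.

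limma 3.58.1 (R 4.3.3) fitted 4 group means (12 residual degrees of freedom) with Benjamini-Hochberg adjustment over all genes; the code was tested on simulated data. The labels do not say more of the mice's origin, so p-values measure the spread between these 16 arrays. Arrays with the same replicate number share a slide and row: the correlation of their deviations from group means over 19345 genes was 0.06 to 0.31 for fasting in WT, 0.14 to 0.39 for fasting in mFoxO-TKO, 0.16 to 0.33 for genotype in fed and 0.11 to 0.30 for genotype in fasted mice. Every reported value is from the fit without pairing. The replicate number as a block was an alternative, and its counts over all genes and over members stand beside the results where they moved.

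Members named with values were the isoform families, complex II, and, in each complex, the member with the largest median change and that nearest to 0 with fasting in WT; from the lists of other genes, up to 3 that passed per comparison. The members, lists and tests were chosen with earlier results of these data known. The number of arrays limits the precision. The values of 1 member are not reported here.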

Additional observations from a re-analysis of the deposited data

Results flagged for a closer look

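In the 133 groups of 4 values tested for the named members, 10 had 1 array far from the other 3 by Dixon's ratio. Chance flags about 1 in 20 groups, but several of these members were named for large changes or after their values were seen, so the count cannot be set against chance. Of the 10, 6 lay on fasted mFoxO-TKO replicate 1. Low values there were Cox5a at -5.39 (others 8.08 to 8.45), Ndufa12 at -2.65 (others 7.19 to 7.47) and Ndufa10 at -0.11 (others 5.74 to 6.02), all from the low patch. High values there were Uqcrc1 at 8.09 (others 6.24 to 6.44), Uqcrfs1 at 7.30 (others 6.71 to 6.77) and Ndufs3 at 7.91 (others 7.34 to 7.43).

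On fed WT replicate 3, Ndufs3 at 5.60 (others 7.20 to 7.38) and Atp5e at 6.26 (others 7.94 to 8.25) were low. In fed mFoxO-TKO mice, Cox6b1 was low on replicate 2 at 4.40 (others 4.86 to 4.90). In fasted WT mice, Cox6b2 was low on replicate 3 at -1.95 (others -0.81 to -0.67).

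Mrpl41, a protein of the large mitochondrial ribosomal subunit, had an interaction of genotype and fasting of -1.1 (limma, adjusted p = 0.043). That call was lost when any 1 of 13 arrays was left out and within each slide. Over all genes, 1.13% passed for the interaction.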

How the results depend on the processing

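Of the alternative values for the members' counts and medians, 426 stayed with the reported ones and 6 moved, the medians staying within the SD between arrays of 0.19. That SD is larger than every reported median over all members. A median could thus change sign and still count as staying, so the count says little of how stable the medians are. Counts of members that passed with fasting in WT mice moved from 0 to 2 lower under other scalings (Ndufc2 and Sdhd each time). These were the percentile taken over detected probes (4011 of all 21288 genes lower), quantile normalisation (2879 of 21288) and the authors' value table (2860 of 12952). The authors' value table allowed 61 of the 82 members to be tested. For genotype in fasted mice the count moved from 0 to 2 higher with quantile normalisation (Ndufs8 0.29 and Uqcrfs1 0.32), where 1453 of 21288 genes were higher. It moved to 1 higher with the mean of all probes of a gene (Ndufv3 0.45), where 1030 of 21288 genes were higher. With the replicate block, 1 member passed as higher for fasting in mFoxO-TKO mice, where 2067 of 21288 genes were higher. The block changed no other call on members. Scaling moved the median of all genes with fasting in WT mice from 0.03 to -0.13 (detected probes), -0.04 (quantile) and -0.08 (the authors' values); the members went to -0.13, -0.11 and -0.11. Leaving out any 1 array, slide 1 or 2 alone, the normexp correction, other filters, the slide as a block, the 2 groups alone and the spots of the low patch (chosen after seeing the data) gave 0 members in every comparison, and the cause of the changes was not tested. Over the settings other than leaving out 1 array, the calls over all genes ranged from 693 (slide 1 alone) to 6409 with fasting in WT (4517 as reported), 72 to 3361 with fasting in mFoxO-TKO (1858), 32 to 410 for genotype in fed mice (215), 346 to 3391 for genotype in fasted mice (2043) and 5 to 678 for the interaction (240). Leaving out 1 array gave 3525 to 5549, 1132 to 2132, 108 to 324, 1564 to 2327 and 131 to 429 calls in the same order. A single slide holds 2 arrays a group, so its lost calls say little. The authors' value table, which gave the 678 calls for the interaction, tested 12952 genes.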
